A study of Caenorhabditis elegans with 9 samples.

Results

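The superoxide dismutase genes sod-1 to sod-5, the catalase genes ctl-1, ctl-2 and ctl-3 and the metallothionein genes mtl-1 and mtl-2 of Caenorhabditis elegans were followed through RNA recovered with the GFP-tagged protein HZL-1. They are the rows whose gene symbol equals one of these names, 10 of 46904 genes, and each was found in all 3 deposited tables. The animals were dauers, a larval stage of arrest with high stress resistance, grown at 25 °C and collected 96 hours after hatching, on day 2 of dauer. Animals were fixed with formaldehyde, lysed and precipitated with an antibody to GFP, and polyadenylated RNA of the precipitate was sequenced. Without an input sample in this set, a level holds both the abundance of a transcript in the animal and its recovery on the beads, and fewer cells with a transcript cannot be told apart from less of it per cell.

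All animals were hermaphrodites that carried a daf-2 mutation, in the gene of the insulin/IGF receptor. In the aak(0) genotype both catalytic subunit genes of AMPK, a kinase that senses energy, were mutated as well (aak-1; aak-2). The intestinal set held 3 libraries of hzl-1 mutants in aak(0) and 3 in daf-2, all with an nhx-2p::hzl-1::GFP transgene, whose promoter is active in the intestine. It also held 1 control library, labelled aak(0) with nhx-2p::GFP and without the hzl-1 mutation. The endogenous set held 1 library per genotype, in hzl-1 mutants with hzl-1p::hzl-1::GFP. The labels write each transgene as Ex, the notation for an extrachromosomal array, which is not inherited by every animal or cell. The precipitates were made from whole animals, and the labels do not state that replicates were grown separately, so the p-values below reflect a spread between libraries that may be technical.

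Superoxide dismutases convert superoxide to hydrogen peroxide, catalases break hydrogen peroxide down to water and oxygen, and metallothioneins are small cysteine-rich proteins that bind metals. Reduced insulin signalling lets the transcription factor DAF-16 enter the nucleus, and sod-3 and mtl-1 are among its best known targets in long-lived daf-2 mutants and in dauers. In the worm sod-1 and sod-5 encode copper/zinc enzymes of the cytosol, sod-2 and sod-3 manganese enzymes of the mitochondrion, and sod-4 a copper/zinc enzyme that is secreted or held at the cell surface. The product of ctl-2 is the peroxisomal catalase and that of ctl-1 is cytosolic.

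In the files' coordinates (WBcel235), sod-1 (WBGene00004930) lies on chromosome II from 6972712 to 6973892 and sod-5 (WBGene00007036) on II from 4417683 to 4419131. The gene sod-3 (WBGene00004932) lies on X from 17092718 to 17094223, and 582 bp of it are also covered by the coding gene C08A9.3. The gene sod-4 (WBGene00004933) lies on III from 9497019 to 9500202 and shares 26 bp with ctr-9. For sod-2 (WBGene00004931) the files give a span of 18688 bp on chromosome I, 8417124 to 8435811, that runs over 4 other coding genes, whereas RefSeq places sod-2 between 8434550 and 8435806. One of them, dpt-1, overlaps from 8429931 to 8435811, which takes in the RefSeq position too. It was detected in each intestinal library, at 2.27 to 11.4 FPKM. The 3 catalase genes stand side by side on II in the order ctl-2 (WBGene00000831, 14299553 to 14302083), ctl-1 (WBGene00000830, 14303612 to 14306329) and ctl-3 (WBGene00013220, 14307854 to 14310779). The gaps between them are 1528 and 1524 bp, and ctl-2 shares 81 bp with the coding gene Y54G11A.7. The metallothionein genes are short, with mtl-1 (WBGene00003473) on V from 6691371 to 6691863 and mtl-2 (WBGene00003474) on V from 14018270 to 14018673. The labels do not say if counting used the strand, so how reads in shared stretches were assigned is not known. In the replicate 1 libraries of aak(0) and daf-2, dpt-1 had 6.63 and 7.62 FPKM while sod-2 was listed at 0.

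The libraries were unequal in ways that touch every value below. Gene reads of the 6 intestinal HZL-1 libraries numbered between 7151604 and 17397251, and ribosomal RNA took 76.3% to 89.8% of them. Genes with a value above 0 FPKM (fragments scaled for transcript length and sequencing depth) were fewest for aak(0) replicate 1 (3439), daf-2 replicate 1 (5135) and daf-2 replicate 3 (6076), against 11510 to 18666 in the other 4 libraries. These 3 libraries listed 65.9%, 51.0% and 45.1% of the 9649 tested genes at 0, so values are given for each library. The mutated kinase gene aak-2 followed the labels in the intestinal HZL-1 libraries, at 0, 2.11 and 3.36 FPKM for aak(0) and 6.13, 5.31 and 7.90 FPKM for daf-2, without overlap. In the other 3 libraries it did not. The GFP library labelled aak(0) stood at 8.32 FPKM, above each daf-2 library. In the endogenous set the library labelled aak(0) held 92248 reads of aak-2 against 3937 in the library labelled daf-2. The other mutated gene, aak-1, overlapped between the intestinal HZL-1 groups. It had 0, 2.19 and 2.66 FPKM for aak(0), 0, 2.85 and 6.41 FPKM for daf-2 and 4.43 FPKM for GFP alone. In the endogenous set aak-1 had 638 reads in the library labelled aak(0) and 1150 in that labelled daf-2. The bait transcript hzl-1 (listed as C44H9.4) had 11527 reads in the first and 0 in the second, although both are labelled as carrying the tagged gene. These 3 libraries are therefore called by their labels. Of the markers of intestine 7 of 8 were found in the tables, with 3 to 7 of them above 0. Their summed level was 26.6 to 48.1 FPKM over the 7 intestinal libraries. Neuron markers summed higher in each library (49.1 to 161 FPKM). Body wall muscle markers did so in each except daf-2 replicate 1 (29.8 against 47.8 FPKM). Pharynx and hypodermis markers were lower than those of intestine in most libraries, and germline, sperm and dauer markers went both ways. The lists hold different genes, so these sums do not give tissue shares. The word intestinal thus refers to the promoter of the transgene.

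Among the 10 genes mtl-1 and sod-1 were the most abundant in the intestinal set. Averaged over the 7 libraries, mtl-1 stood at 31.2 FPKM and sod-1 at 24.2 FPKM. Then came sod-4 at 7.503, sod-3 at 7.02, ctl-2 at 6.93, ctl-3 at 5.32, ctl-1 at 5.23, sod-2 at 3.65, sod-5 at 2.72 and mtl-2 at 0.466 FPKM. The one step in this order that held in each of the 7 libraries was that of sod-1 over sod-4. The level of mtl-1 was above that of sod-1 in 5 of 7 libraries. From sod-4 down to mtl-2, a gene was above the next in 2 to 4 of 7 libraries. A library with both genes at 0 counted as not above, and the differences between these neighbours were not tested. Against all protein-coding genes detected in the same library, mtl-1 ranked between the 93.9th and the 98.2nd percentile in the 6 libraries that held it, and sod-1 between the 85.7th and the 95.1st in all 7.

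**Figure D1:**
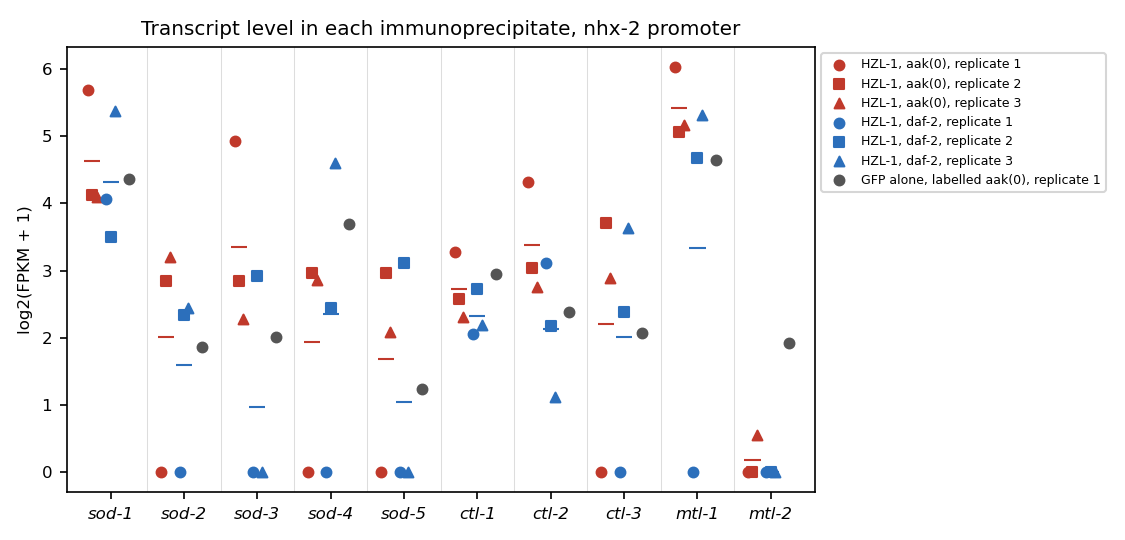
Level of each gene, as log2(FPKM + 1), in the 3 HZL-1 aak(0) libraries (red), the 3 HZL-1 daf-2 libraries (blue) and the GFP library (grey); symbols mark replicates and short lines the means of groups of 3. The points at 0 come mostly from aak(0) replicate 1, daf-2 replicate 1 and daf-2 replicate 3, and in 9 of 10 genes the points of the 2 HZL-1 groups interleave, mtl-2 being near 0 in both.

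The cytosolic enzyme gene sod-1 was recovered in every library. It was listed at 50.6, 16.4 and 16.12 FPKM for aak(0) replicates 1 to 3, 15.8, 10.3 and 40.4 FPKM for the daf-2 trio and 19.5 FPKM for GFP alone. One library of each genotype stood far above the other two, and the groups overlapped. The means were 27.7 ± 19.8 FPKM (SD, n = 3) in aak(0) and 22.2 ± 16.01 FPKM (SD, n = 3) in daf-2. The log2 difference of aak(0) over daf-2 was 0.32 ± 0.74 (SE), with a 95% interval from -1.45 to 2.099 and a limma adjusted p of 0.914.

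The other cytosolic gene, sod-5, was much lower and patchy. It was listed at 0, 6.83 and 3.23 FPKM for the aak(0) trio, 0, 7.64 and 0 FPKM for the daf-2 trio and 1.36 FPKM for GFP alone. Its 3 zeros fell in the 3 libraries with the fewest genes, a pattern shared by 1373 of the 9649 tested genes (14.2%). The log2 difference was 0.65 ± 1.22 (limma adjusted p = 0.891).

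The mitochondrial pair behaved unequally in single libraries. The constitutive gene sod-2 was listed at 0, 6.21 and 8.20 FPKM for the aak(0) trio, 0, 4.05 and 4.46 FPKM for the daf-2 trio and 2.65 FPKM for GFP alone, so both replicate 1 libraries lacked it. The DAF-16 target sod-3 was listed at 29.5, 6.15 and 3.87 FPKM for the aak(0) trio, 0, 6.60 and 0 FPKM for the daf-2 trio and 3.02 FPKM for GFP alone. It was thus present in 3 of 3 aak(0) libraries and in 1 of 3 daf-2 libraries, and that daf-2 library lay above aak(0) replicates 2 and 3. Its whole reads, recovered from the deposited normalized table, were 218, 112 and 101 for aak(0) and 0, 131 and 0 for daf-2.

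Of the 9 genes tested, sod-3 had the largest log2 difference of aak(0) over daf-2, 2.38 ± 1.16 (95% interval -0.42 to 5.17). It did not pass, with a limma adjusted p of 0.717 and an unadjusted p of 0.0832. Without the 3 libraries with the fewest genes the difference was -0.37, where daf-2 is represented only by replicate 2, the one daf-2 library with sod-3, so that choice of libraries fixes the sign. Its zeros in daf-2 replicates 1 and 3 are a pattern that 352 tested genes (3.65%) showed. For sod-2 the difference was 0.42 ± 1.19 (limma adjusted p = 0.933). The aak(0) library with the high sod-3 level, replicate 1, also had the highest summed body wall muscle markers (4 of 5 above 0), 199.9 FPKM against 29.8 to 144 elsewhere. Its pharynx markers (59.1 against 13.2 to 35.2 FPKM, 2 of 4 above 0) and hypodermis markers (41.7 against 2.34 to 27.3 FPKM, 3 of 5 above 0) were the highest too. Its markers of intestine (28.7 FPKM), neurons (89.8), germline (47.3), sperm (0) and dauer (20.8) were not the highest. The part of these tissues in the sod-3 value was not tested. The same library held the highest sod-1, ctl-1, ctl-2 and mtl-1 levels of the set.

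The secreted enzyme gene sod-4 was the one tested member with a mean lower in aak(0). It was listed at 0, 6.77 and 6.24 FPKM for the aak(0) trio, 0, 4.44 and 23.2 FPKM for the daf-2 trio and 11.9 FPKM for GFP alone. The highest value came from daf-2 replicate 3, and the other libraries of both genotypes interleaved. The log2 difference was -0.41 ± 1.42 (limma adjusted p = 0.9502), and it was 0.72 without daf-2 replicate 3.

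Within each library the share of a gene in the summed FPKM of its family does not depend on the library's scale. The share of sod-1 among the 5 superoxide dismutase genes was 63.2%, 38.8% and 42.8% for aak(0), 100%, 31.2% and 59.4% for daf-2 and 50.7% for GFP alone, the highest of the 5 in each of the 7 libraries. In the 3 HZL-1 libraries with the most genes, all 5 genes were present and sod-1 took 31.2% to 42.8%. The sum itself was 80.1, 42.4 and 37.7 FPKM for aak(0), 15.8, 33.0 and 68.0 FPKM for daf-2 and 38.4 FPKM for GFP alone, again with overlapping groups.

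**Figure D2:**
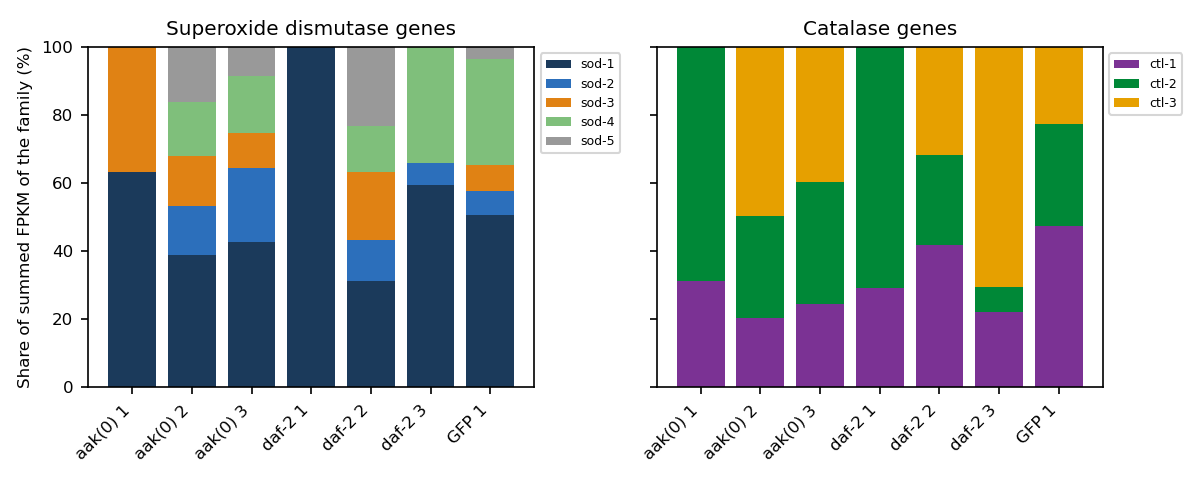
Share (%) of each gene in the summed FPKM of the 5 superoxide dismutase genes (left) and the 3 catalase genes (right), as stacked bars for each library of the intestinal set. In daf-2 replicate 1 sod-1 made up 100% of its family, while in aak(0) replicates 2 and 3 and daf-2 replicate 2 all members were present.

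The catalase genes were recovered at similar levels. The peroxisomal gene ctl-2 was listed at 18.97, 7.25 and 5.77 FPKM for the aak(0) trio, 7.64, 3.51 and 1.18 FPKM for the daf-2 trio and 4.22 FPKM for GFP alone. All aak(0) libraries were above 2 of the 3 daf-2 libraries, and daf-2 replicate 1 lay above aak(0) replicates 2 and 3. The log2 difference was 1.24 ± 0.79 (95% interval -0.67 to 3.15, limma adjusted p = 0.717). It stayed above 0 in all 15 alternatives, between 0.32 and 1.73, and passed in none of them. The same held for mtl-1, between 0.38 and 3.18. The alternatives reuse the same libraries, and in the main fit the median over all tested genes was also above 0, at 0.59.

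The third gene of the cluster, ctl-3, was listed at 0, 12.04 and 6.41 FPKM for the aak(0) trio, 0, 4.21 and 11.4 FPKM for the daf-2 trio and 3.21 FPKM for GFP alone. The zeros were again those of the replicate 1 libraries, as in 1225 tested genes (12.7%), among them sod-2 and sod-4. The log2 difference was 0.19 ± 1.36 (limma adjusted p = 0.979).

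The cytosolic catalase gene ctl-1 gave different answers in the deposited tables. By FPKM it was present in every library, at 8.67, 4.98 and 3.96 for aak(0), 3.14, 5.58 and 3.57 for daf-2 and 6.72 for GFP alone, a narrower range than any other member except mtl-2. By whole reads it had 0 in 5 of the 6 HZL-1 libraries and 11 in daf-2 replicate 2. It also had 0 reads in both endogenous libraries, where ctl-2 had 340 and 861. An FPKM above 0 with 0 reads in at least 5 of the 6 libraries was found for 58 of the 9649 tested genes. In the other 9 members the zeros of both tables coincided in each library. The 3 catalase genes are close copies of one another, and the labels do not say how reads matching several copies were assigned, so the split between ctl-1, ctl-2 and ctl-3 is uncertain. The FPKM-based log2 difference of ctl-1 was 0.40 ± 0.61 (limma adjusted p = 0.851). The summed FPKM of the 3 genes, which does not rest on that split, was 27.6, 24.3 and 16.14 for aak(0), 10.8, 13.3 and 16.14 for daf-2 and 14.15 for GFP.

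**Figure D3:**
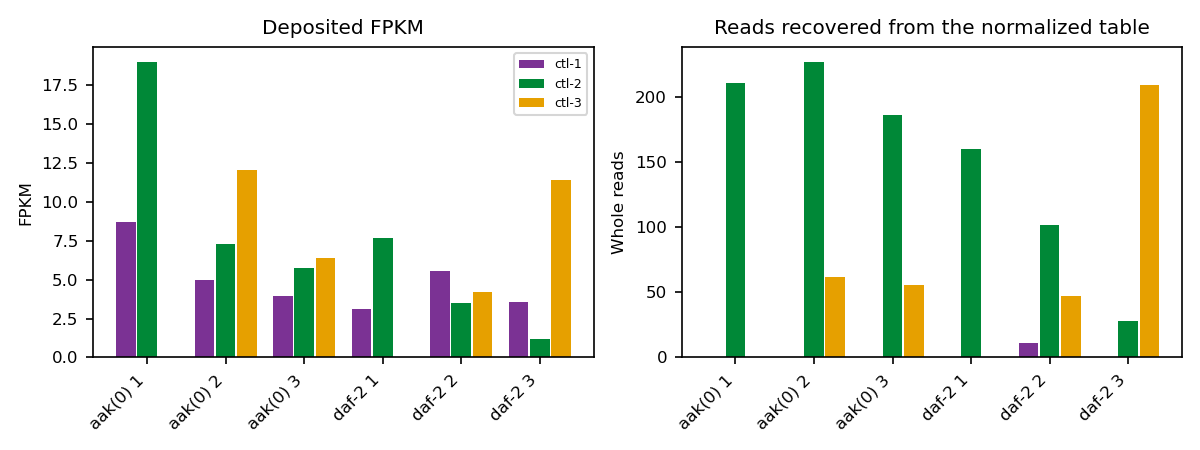
The 3 catalase genes in the 6 HZL-1 libraries of the intestinal set, as deposited FPKM (left) and as whole reads recovered from the deposited normalized table (right). The gene ctl-1 has an FPKM of 3.14 to 8.67 in each library but reads in 1 library, with 11.

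The metallothionein gene mtl-1, a DAF-16 target of the intestine and pharynx, was the most abundant member in 5 of 7 libraries. It was listed at 64.1, 32.2 and 34.7 FPKM for the aak(0) trio, 0, 24.6 and 38.9 FPKM for the daf-2 trio and 24.0 FPKM for GFP alone. The daf-2 replicate 3 value lay above aak(0) replicates 2 and 3, and daf-2 replicate 1 was listed at 0. The log2 difference was 2.08 ± 1.41 (95% interval -1.33 to 5.49, limma adjusted p = 0.717), and it was 0.41 without daf-2 replicate 1. Its reads were 199, 247 and 265 for aak(0) and 0, 178 and 299 for daf-2.

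The paralog mtl-2, known for its induction by metals in the intestine, was nearly absent. It was listed at 0, 0 and 0.46 FPKM for aak(0), with 3 reads in replicate 3, 0 in each daf-2 library, and 2.80 FPKM for GFP alone. Its mean of 0.466 FPKM lay under the minimum of 1 FPKM for testing, so the tests cover the other 9 genes. With no minimum it was lower than GFP by limma in both genotypes, by -1.74 ± 0.28 in aak(0) (adjusted p = 0.0304) and by -1.93 ± 0.28 in daf-2 (adjusted p = 0.0188), on the log2(FPKM + 1) scale. With its 1 GFP library and 5 HZL-1 libraries at 0, that contrast rests on 1 value.

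The main comparison asked whether recovery with intestinal HZL-1 depended on AMPK. By limma, 0 of the 9 tested genes passed an adjusted p of 0.05 in either direction, where 0.0104% of all tested genes were called higher in aak(0) and 0% lower, and 0 of the 9 had an unadjusted p under 0.05. On the recovered reads, 0 of 8 tested members passed with edgeR's quasi-likelihood test. In the DESeq2 run 0 of 10 members passed, but sod-3 received no adjusted p there and so could not pass. None of the 9 had groups without overlap, where 10% of all tested genes had every aak(0) library above every daf-2 library and 0.746% the opposite. The median log2 difference was 0.42 over the 9 genes and 0.59 over all tested genes, and 4 of the 9 lay above the latter. With quantile normalization the median of all genes was -0.02 and 5 of the 9 differences changed sign. The intervals are wide, and for each of the 9 genes they include log2 differences of both 0 and 1, so they do not show that recovery was equal.

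**Figure D4:**
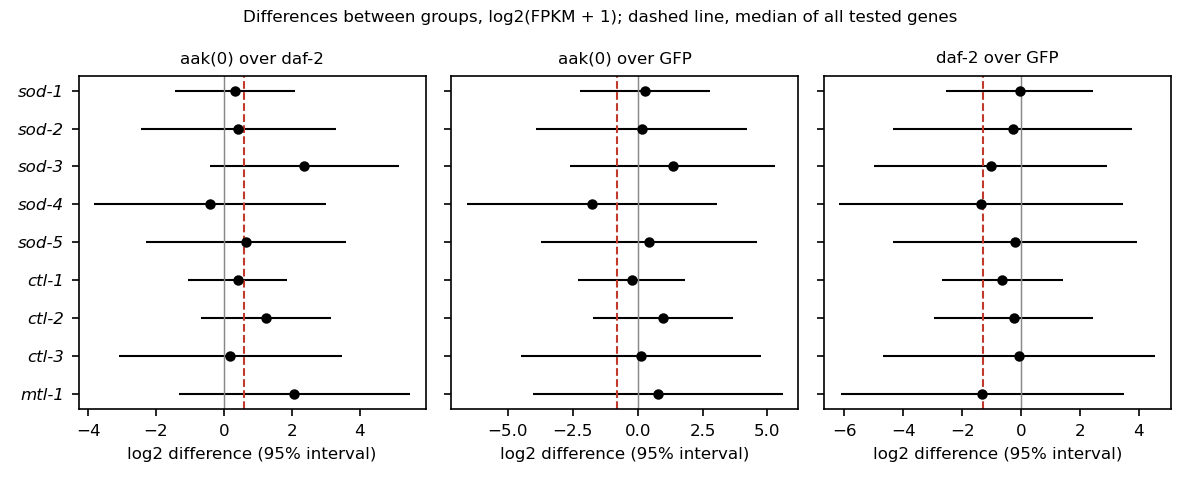
Log2 difference with its 95% interval (limma, log2(FPKM + 1)) of the 9 tested genes in 3 comparisons: aak(0) over daf-2, aak(0) over GFP and daf-2 over GFP. Each interval crosses 0, and the dashed line marks the median over all 9649 tested genes, at 0.59, -0.79 and -1.28.

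In the authors' deposited table of daf-2 over aak(0), sod-3 and mtl-1 had the largest fold changes of the 10 genes, -10.53 and -10.40 on the log2 scale. Their adjusted p in the authors' deposited table was 0.335 and 0.334, and their unadjusted p 0.0270 and 0.00948. Of the 24419 genes with an adjusted p there, 0 were under 0.05, and 3250 genes had an unadjusted p under 0.05. Both genes had reads in aak(0) replicate 1 and 0 reads in daf-2 replicate 1. The 6 genes with 0 reads in both replicate 1 libraries (sod-2, sod-4, sod-5, ctl-1, ctl-3 and mtl-2) were all listed at -0.32 in the authors' deposited table, whatever their reads in replicates 2 and 3. The fold changes that the authors' deposited table calls unshrunken were -5.04 for sod-3 and -2.71 for mtl-1.

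The comparison with GFP alone asked whether HZL-1 recovered these transcripts above the background of the precipitation. None passed by limma over GFP in aak(0), where 0.0207% of tested genes were called higher and 1.05% lower, or in daf-2, where 0% were called higher and 1.07% lower, and 0 members had an unadjusted p under 0.05 in either contrast. In aak(0) the log2 difference from GFP ranged from -1.75 for sod-4 to 1.34 for sod-3, with a median of 0.28 over the 9 genes against -0.79 over all tested genes. Without aak(0) replicate 1 these were -0.78 for sod-4 and 0.55 for sod-3. In daf-2 it ranged from -1.34 for sod-4 to -0.04 for sod-1, with a median of -0.27 against -1.28. Both contrasts share the GFP library, and they assume that this single library varies like the replicated groups.

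Against the single GFP library, 3 genes (sod-3, ctl-2 and mtl-1) were higher in every aak(0) library, where 3.09% of all tested genes were. One gene, sod-4, was lower in every aak(0) library, where 50.3% of all tested genes were. In daf-2, 0 of the 9 were higher in every library (1.10% of all tested genes) and 1, ctl-1, was lower in every library (57.6%). In the aak(0) contrast the bait and the hzl-1 mutation differ together and cannot be told apart. In the daf-2 contrast the labelled genotype differs along with both.

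The endogenous pair asked the same question of HZL-1 expressed from its own promoter, with 1 library per genotype and so no test. Counts were scaled to CPM, counts scaled to a common total, over gene reads without ribosomal RNA, which took 29.96% of gene reads in the library labelled aak(0) and 70.35% in that labelled daf-2. In the library labelled aak(0) the arginine kinase gene argk-1 alone took 53.3% of the remaining reads, so the values of all other genes there are lower by that share. The log2 difference had a median of 1.45 over the 19416 genes above the minimum, and of -0.97 over the 9516 genes with reads in both libraries. Ratios are therefore given beside their range over 3 other scalings, which used all gene reads, the median of ratios, or reads without ribosomal RNA and argk-1.

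Here sod-3 had 0 reads in the library labelled aak(0) and 1333 in that labelled daf-2. It was at least 434-fold higher in the latter against a floor of 3 reads per library, and at least 184- to 215-fold with the other scalings. Of the 2849 genes with at least as many reads in the library labelled daf-2, 46 (1.61%) had 0 reads in that labelled aak(0). The intestinal set had sod-3 in each aak(0) library and in 1 of 3 daf-2 libraries, and the difference between both sets was not tested.

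The opposite was seen for sod-5, with 259 reads in the library labelled aak(0) and 0 in that labelled daf-2. It was at least 88.4-fold higher in the former, and at least 178- to 209-fold with the other scalings. Such a gap was common in that direction: of the 8606 genes with at least 259 reads in the library labelled aak(0), 2515 (29.2%) had 0 reads in the other. The metallothionein mtl-2 had 36 reads against 0, at least 12.3-fold higher in the library labelled aak(0), and at least 24.8- to 29.0-fold with the other scalings. Of the 17808 genes with at least 36 reads there, 8738 (49.1%) had 0 reads in the other.

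Genes with reads in both libraries differed less. For sod-4, with 10.5 CPM in the library labelled aak(0) and 93.4 in that labelled daf-2, the level was 8.88-fold higher in the latter (exact 95% binomial interval 7.60 to 10.4), and 3.76- to 4.41-fold with the other scalings. For sod-1, at 45.7 and 226 CPM, it was 4.93-fold higher in the library labelled daf-2 (4.57 to 5.34), and 2.09- to 2.45-fold otherwise. Such intervals account for counting error alone, because the reads carry no molecular identifiers.

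The remaining genes depended on the scaling. The level of mtl-1, at 44.02 and 136 CPM, was 3.08-fold higher in the library labelled daf-2 (2.83 to 3.35), but 1.303- to 1.53-fold with the other scalings. That of ctl-2, at 20.2 and 50.0 CPM, was 2.47-fold higher there (2.18 to 2.81), but 1.05- to 1.23-fold otherwise. In contrast sod-2, at 21.98 and 18.97 CPM, was 1.16-fold higher in the library labelled aak(0) (0.996 to 1.35), and 2.33- to 2.74-fold with the other scalings. For ctl-3 there were 0 and 5 reads, and for ctl-1 0 in both, which allows up to 0.178 and 0.174 CPM for a count of 3.

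Past a change of 2-fold on the log2 scale with a pseudocount of 1, 2 of the 8 members above the minimum of 1 CPM were higher in the library labelled aak(0), where 51.6% of all genes were. Lower were 5 of the 8, where 29.9% of all genes were. Of all genes, 45.2% had reads in the library labelled aak(0) and 0 in that labelled daf-2, and so could not be lower. The lower members sod-1, sod-4, ctl-2 and mtl-1 had reads in both libraries. Of the 9516 genes with reads in both, 4695 (49.3%) were lower past 2-fold and 1240 higher. With the median-of-ratios scaling 3 members were higher (58.5% of all genes) and 3 lower (17.7%). The direction of each of the 8 members was the same under each scaling tried.

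**Figure D5:**
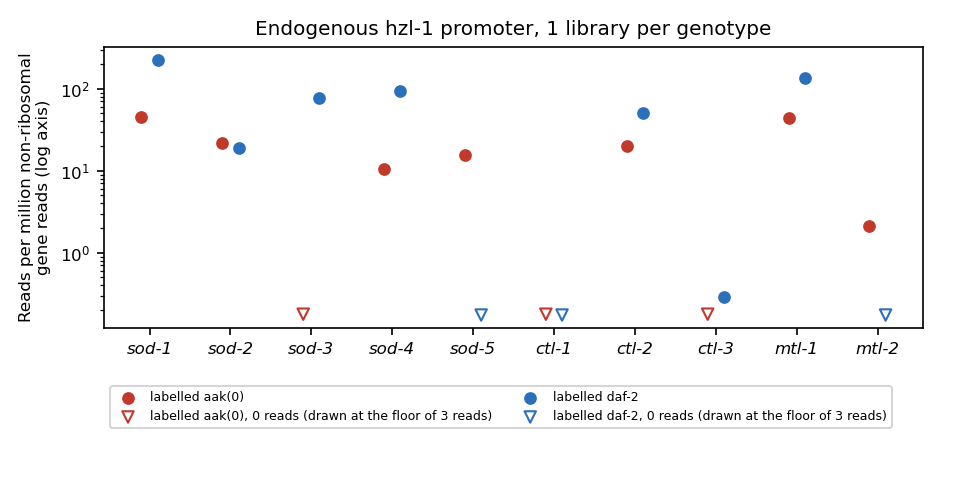
CPM over non-ribosomal gene reads (log axis) of the 10 genes in the single library labelled aak(0) (red) and the single library labelled daf-2 (blue), both with the endogenous hzl-1 promoter. Open triangles mark 0 reads, drawn at the floor of 3 reads; sod-3 has 0 reads in the first library, and sod-5 and mtl-2 have 0 in the second.

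The genes whose levels were most like those of a member were sought for the 3 members detected in all 7 intestinal libraries, by the mean absolute difference of log2(FPKM + 1). For sod-1 they were sup-26, sqv-5 and sqst-1, at mean differences of 0.24, 0.26 and 0.29. For ctl-1 they were vwa-8, atf-6 and kvs-5 (0.21, 0.25 and 0.25), and for ctl-2 unc-37, ruvb-2 and catp-1 (0.28, 0.30 and 0.32). This is a description over 7 libraries that share their differences in depth and detection.

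Other systems against oxidants and metals also held no gene that passed between aak(0) and daf-2 by limma. Of 12 peroxiredoxin and thioredoxin genes 7 were tested and 0 passed in either direction, with a median log2 difference of 0.67. Their most abundant gene, the peroxiredoxin prdx-2, was listed at 0, 12.5 and 17.3 FPKM for aak(0) and 0, 10.4 and 0 FPKM for daf-2. The mitochondrial thioredoxin gene trx-2, at 0, 4.49 and 8.31 FPKM for aak(0) and 0, 7.98 and 17.07 FPKM for daf-2, was absent from the same replicate 1 libraries as sod-2.

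Of 16 glutathione genes 9 were tested and 0 passed (median 0.72), led by the glutathione peroxidase gene gpx-5 at 28.4, 20.3 and 15.6 FPKM for aak(0) and 9.87, 15.7 and 44.2 FPKM for daf-2. Like sod-1, gpx-5 was detected in each library with its highest value in daf-2 in replicate 3. A second glutathione peroxidase gene, gpx-2, had 46.1, 7.01 and 6.89 FPKM for aak(0) and 7.72, 2.63 and 11.12 FPKM for daf-2, with replicate 1 of aak(0) far above the rest, as in sod-3.

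Of 14 metal handling genes 11 were tested and 0 passed (median 0.71), and of 11 peroxisome biogenesis genes 7 were tested and 0 passed (median 0.53). The ferritin gene ftn-2 was listed at 0, 15.5 and 13 FPKM for aak(0) and 11.9, 8.56 and 11.9 FPKM for daf-2. The copper transporter gene cua-1 had 12.91, 4.63 and 5.72 FPKM for aak(0) and 1.48, 2.19 and 3.40 FPKM for daf-2, groups that did not overlap, as in 10% of all tested genes (log2 difference 1.31 ± 0.66, limma adjusted p = 0.717). The peroxisomal gene prx-19 had the one unadjusted p under 0.05 among these lists, 0.0409, where 4.35% of all tested genes had one, at 18.98, 10.5 and 12.8 FPKM for aak(0) against 6.66, 3.23 and 0.14 FPKM for daf-2 (log2 difference 2.14 ± 0.84, limma adjusted p = 0.717). The peroxin gene prx-10 had 6.64, 5.86 and 4.54 FPKM for aak(0) and 0, 1.76 and 2.41 FPKM for daf-2. Neither prx-19 nor prx-10 overlapped between groups, again as in 10% of all tested genes.

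Of 8 genes for oxidant production and peroxidases 3 were tested and 0 passed (median 1.66). The tetraspanin gene tsp-15, which acts with the dual oxidase, had 19.03, 1.74 and 0.93 FPKM for aak(0) and 0, 0.27 and 0 FPKM for daf-2. The peroxidase gene skpo-3 had 14.05, 1.12 and 0.71 FPKM for aak(0) and 0, 0.29 and 2.31 FPKM for daf-2. The median over all tested genes was 0.59.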

How the data were processed

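Tools named in the submitters' processing notes are Trimmomatic 0.35, STAR 2.7.1a, RSEM and DESeq2 1.30.1, on build WBcel235, without further settings. The authors deposited FPKM for the 7 intestinal libraries and raw counts of reads per gene for the 2 endogenous libraries. A further deposited table held a signal per gene for the 6 intestinal HZL-1 libraries, with the authors' log2 fold changes and p-values. Each of its signal values was a whole multiple of the smallest of its library (100% within a tolerance of 0.01), which gave whole reads. Entries naming no gene took 62.1% of reads in the counts table for the library labelled aak(0) and 29.6% for that labelled daf-2, and were left out.

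limma 3.58.1 (R 4.3.3) with a mean-variance trend was fitted to log2(FPKM + 1) of all 7 libraries, 1 mean per group, for the 9649 genes averaging 1 FPKM or more. Benjamini-Hochberg adjustment ran over all tested genes. Fold changes on this scale understate the change of low genes. edgeR 4.0.16 (quasi-likelihood, TMM) and DESeq2 1.42.0 were run on the recovered reads as alternatives, and limma, edgeR and DESeq2 were each tested on simulated data. Endogenous ratios carry exact 95% binomial intervals, and a bound against 0 reads used 3 reads instead, equal to 0.848 to 2.15 CPM without ribosomal RNA in the HZL-1 libraries of the intestinal set. No depth could be derived for GFP alone.

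All 10 members were named throughout. From each further list, genes that passed were to be named and otherwise the 2 with the highest mean FPKM. The members and lists were chosen with earlier results of these data known. The labels do not state that replicate numbers pair the libraries, and the main fit used no pairing.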

Additional observations from a re-analysis of the deposited data

How the results depend on the processing

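No tested member passed the threshold in any of the 15 alternatives for aak(0) over daf-2 or the 13 for each contrast with GFP, at adjusted p from 0.0623 to 1. The setting without the 3 libraries with the fewest genes leaves 1 daf-2 library, set against 1 GFP library in daf-2 over GFP, and takes its spread from the 2 remaining aak(0) libraries; the lowest p came from it, and it is no independent test. With DESeq2, sod-3 had no adjusted p, so that alternative could not call it. With no minimum level, 1 member (mtl-2) was called lower than GFP in aak(0) and 1 in daf-2. In contrast, signs of the uncalled differences were unstable: 29 of 134 values for aak(0) over daf-2, 16 of 117 for aak(0) over GFP and 32 of 117 for daf-2 over GFP had the other sign. The cause was not tested. Detection limits these values, since 3 HZL-1 libraries listed 45.1% to 65.9% of tested genes at 0. Among the intestinal HZL-1 libraries, aak(0) replicate 1 had the fewest non-ribosomal gene reads (1393416) and the fewest genes (3439). The most of both were in aak(0) replicate 3 (3539244 and 18666). The 2 orders were not the same throughout: daf-2 replicate 3 had 2783828 such reads and 6076 genes, and daf-2 replicate 2 had 1770623 and 11510. The part of read depth was not tested.

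For aak(0) over daf-2, quantile normalization gave log2 differences of -0.090 for sod-1, -0.13 for sod-2, -0.37 for sod-5, -0.54 for ctl-1 and -0.36 for ctl-3. Median-of-ratios scaling gave -0.36 for sod-1, -0.20 for ctl-1 and -0.19 for ctl-3. On recovered reads edgeR gave -0.28 for sod-1, -0.47 for sod-5 and -1.34 for ctl-3, and DESeq2 -0.37 for sod-1, -0.011 for sod-2, -0.47 for sod-5, -4.85 for ctl-1 and -1.58 for ctl-3. Without the 3 libraries with the fewest genes (aak(0) replicate 1 and daf-2 replicates 1 and 3) it was -0.37 for sod-3, 0.46 for sod-4, -0.59 for sod-5 and -0.27 for ctl-1. With single libraries left out, sod-1 ranged from -0.20 (without aak(0) replicate 1) to 0.85, sod-2 from -0.38 (without daf-2 replicate 1) to 1.43, sod-4 from -1.58 to 0.72 (without daf-2 replicate 3) and ctl-3 from -0.81 (without daf-2 replicate 1) to 1.29.

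For aak(0) over GFP, a pseudocount of 0.1 gave -0.66 for sod-2, -0.14 for sod-5 and -0.73 for ctl-3. For ctl-1 quantile normalization gave 0.23 and median-of-ratios scaling 0.054, and sod-1 was -0.25 without the 3 libraries with the fewest genes. With single libraries left out sod-1 ranged from -0.25 to 0.55, sod-2 from -0.44 to 1.16, sod-5 from -0.20 to 1.29 and ctl-3 from -0.63 to 1.22. For daf-2 over GFP, a pseudocount of 10 gave 0.013 for sod-1, 0.0017 for sod-2, 0.089 for sod-5 and 0.13 for ctl-3. Quantile normalization gave 0.67 for sod-1, 1.38 for sod-2, 0.92 for sod-3, 1.38 for sod-5, 0.77 for ctl-1, 1.46 for ctl-2 and 1.71 for ctl-3. Median-of-ratios scaling gave 0.95 for sod-1, 0.42 for sod-2, 0.34 for sod-5, 0.26 for ctl-1, 0.57 for ctl-2 and 0.66 for ctl-3. Without the 3 libraries with the fewest genes it was 0.47 for sod-2, 0.92 for sod-3, 1.87 for sod-5, 0.31 for ctl-3 and 0.032 for mtl-1. With single libraries left out sod-1 ranged from -0.57 to 0.36, sod-2 from -0.70 to 0.52, sod-5 from -1.24 to 0.32, ctl-2 from -0.74 to 0.26, ctl-3 from -0.88 to 0.93 and mtl-1 from -2.31 to 0.35.

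A replicate block changed no call of a member. The labels share replicate numbers, and deviations of same-numbered aak(0) and daf-2 libraries correlated at -0.11, -0.05 and -0.10. Deviations from means of 3 libraries cannot exclude a shared batch, and the labels do not state one. The replicate block gave -3.89 for sod-4, -1.66 for sod-2, -0.92 for sod-5, -1.98 for ctl-3 and -0.59 for mtl-1 in aak(0) over GFP, and 0.36 for sod-1 and 0.71 for ctl-2 in daf-2 over GFP. It took the number of called genes to 0 in all 3 comparisons.

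Over all genes, the 1 call for aak(0) over daf-2 became 0 with a pseudocount of 10, no minimum, quantile normalization or without the 3 libraries with the fewest genes, 2 with edgeR and 5 with DESeq2. At an unadjusted p under 0.05, limma held 213 to 4358 genes under the settings with 0 calls. The calls ranged from 0 to 618 with single libraries left out, the highest without aak(0) replicate 1. The 103 calls for aak(0) over GFP became 1568 with no minimum, and the 103 for daf-2 over GFP became 1753. Both became 0 by limma with quantile normalization or without the 3 libraries with the fewest genes, at 198 to 4949 genes with an unadjusted p under 0.05. The calls for daf-2 over GFP ranged from 115 to 462 with single libraries left out, the highest again without aak(0) replicate 1. In the endogenous pair, members lower past 2-fold fell from 5 to 3, and all genes lower past it from 5813 to 2866 with all gene reads, 3469 with the median of ratios and 3341 without ribosomal RNA and argk-1, the last chosen after seeing the data.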

Other observations

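Regulators of these genes were also present in the precipitates. Transcripts of daf-16, the transcription factor gene downstream of daf-2, were listed at 190, 75.7 and 77.6 FPKM for the aak(0) trio, 36.9, 62.2 and 126 FPKM for the daf-2 trio and 141 FPKM for GFP alone. Those of skn-1, the gene of the oxidative stress response factor, were listed at 67.2, 38.8 and 39.8 FPKM for the aak(0) trio, 22.6, 20.2 and 34.9 FPKM for the daf-2 trio and 71.8 FPKM for GFP alone. Of 16 regulator genes 14 were tested and 0 passed between aak(0) and daf-2 by limma, with a median log2 difference of 0.67 against 0.59 over all tested genes. In the endogenous pair, 0 of 15 regulator genes were higher past 2-fold in the library labelled aak(0) and 10 were lower, where 51.6% and 29.9% of all genes were. Of the 9516 genes with reads in both libraries, 4695 (49.3%) were lower and 1240 higher. With the other 3 scalings 1 regulator was higher and 3 to 5 were lower, where 58.5% to 59.7% and 15.1% to 17.7% of all genes were.

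Among 10 other DAF-16 targets 8 were tested and 0 passed between aak(0) and daf-2 (median 1.2996). The noncoding RNA tts-1 was listed at 2093, 1536 and 1335 FPKM for the aak(0) trio, 181, 2120 and 6399 FPKM for the daf-2 trio and 2079 FPKM for GFP alone. The small heat shock gene sip-1 was listed at 43.5, 142 and 126 FPKM for the aak(0) trio, 71.4, 21.3 and 19.1 FPKM for the daf-2 trio and 180 FPKM for GFP alone. For tts-1 the lowest and the highest value both came from daf-2, replicates 1 and 3. In the endogenous pair 2 of 8 such targets were higher past 2-fold in the library labelled aak(0) and 5 lower, against the same 51.6% and 29.9% of all genes. The counts given above for genes with reads in both libraries apply here too. With the other 3 scalings 2 targets were higher and 2 to 4 lower, where 58.5% to 59.7% and 15.1% to 17.7% of all genes were.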
